A study of Homo sapiens with 6 samples.

Results

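ALPK1 and 9 genes of innate NF-κB sensing were followed in LoVo cells, an established human colorectal adenocarcinoma line, with and without DCC-2036, a tyrosine kinase inhibitor. The 10 genes, ALPK1, TIFA, TRAF2, TRAF6, NOD1, RIPK2, NFKB1, NFKB2, RELB and NFKBIA, were 10 of 19223 gene symbols in the deposited RNA-seq table. They were selected from the contrast described here, ALPK1 for its low values with DCC-2036 and the others for their place in the same pathway, so their differences between the groups are given as a description with no test. RNA was sequenced from 3 Control libraries, labelled as vehicle, and 3 libraries from cells given 2.5 μM DCC-2036. The labels give 48 h for both groups, whereas a figure legend of the study gives 24 h. Nothing states that the libraries came from separate cultures, so p-values measure only the spread between these samples, which may be technical.

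In this pathway, ALPK1 is a cytosolic alpha-kinase that is activated by the bacterial sugar ADP-heptose and phosphorylates the adaptor TIFA. TIFA then assembles with TRAF ubiquitin ligases, which leads to activation of the kinases TAK1 and IKK. NOD1 senses a fragment of bacterial peptidoglycan and signals through the kinase RIPK2 to the same kinases, and IKK releases NF-κB dimers from IκB proteins in epithelial cells of the gut among others.

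The values are a signal per transcript and not whole counts, and how deeply each library was sequenced is unknown. The totals of the values were 38997229, 39956227 and 40587145 in Control and 43279603, 45957597 and 48023306 with DCC-2036. The main fit used the values without further scaling. The libraries stood apart in how low values were listed. All 3 DCC-2036 libraries were at 0 in the same 5697 of 45006 transcripts, and 0 transcripts were at 0 in only some of them, whereas 3919 transcripts were at 0 in some but not all Control libraries. Values above 0 but under 0.5 numbered 6692 in the DCC-2036 libraries and 0 in Control. The part of this in the results below was not tested. On the log2 scale, replicates had a median SD of 0.101 for Control and 0.228 for DCC-2036.

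The LoVo label was checked against 11 markers of colon epithelium, of which 7 were tested. KRT8, the most abundant, had values from 55603 to 64134 in Control and from 92924 to 125395 with DCC-2036, and EPCAM, KRT18, KRT19, CDH1 and CDX2 were also present. VIL1, CEACAM5 and LGALS4 were near 0 and CDX1 was listed at 0 in all 6 libraries. The summed level of the list was 104483, 108194 and 115000 in Control and 148344, 163491 and 188450 with DCC-2036. KRT8 and CDH1 were called higher and KRT20 lower, the calls of KRT8 and KRT20 being lost with single libraries left out, at adjusted p up to 0.0146 and 0.0176 (limma). The part of these markers in the results was not tested. Of 10 leukocyte markers, 1 was tested, CD68, at 223.7 to 259.2 in Control and 205.4 to 279.7 with DCC-2036, while PTPRC and CD3D were listed at 0 in every library. The summed leukocyte level was 236.7, 284.0 and 273.4 in Control and 231.5, 264.3 and 332.4 with DCC-2036. Of 9 fibroblast and endothelial markers, 3 were tested and limma called 0, with 1 higher at an unadjusted p under 0.05, the most abundant being COL1A1 at 353.3 to 393.5 in Control and 420.1 to 520.1 with DCC-2036. That list summed to 454.1, 417.2 and 384.5 in Control and 556.2, 467.3 and 572.9 with DCC-2036.

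Of the 10 genes, 6 had groups that did not overlap, 2 higher and 4 lower with DCC-2036, where 71.1% of the 12725 genes tested had groups without overlap. Nothing is read from this count, since the genes were chosen on the same contrast. RIPK2 and NFKB1 were higher, and ALPK1, TRAF2, NFKB2 and RELB were lower. TIFA, TRAF6, NOD1 and NFKBIA overlapped. All 10 genes passed the filter on low values, for which 3 or more libraries had to reach 10. ALPK1 passed it in Control, and 1 of its DCC-2036 values lay below 10.

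ALPK1, the sensor kinase, stood at 234.2, 210.6 and 211.6 in Control and at 20.7, 6.73 and 19.7 with DCC-2036. Every DCC-2036 library lay far below every Control library, and replicate 2 was the lowest. The mean went from 218.8 ± 13.3 to 15.7 ± 7.78 (SD, n = 3), or 7.17% of Control, a log2 difference of -3.86 with a standard error of 0.39 on the log2(value + 1) scale. By this difference ALPK1 ranked 5 from the lowest among the 12725 genes tested, after ZSWIM4, PMFBP1, DRP2 and NLRP14 and before COLQ at -3.83. Control values of those 5 genes were at most 90.3, below every Control value of ALPK1, and the scale understates changes of low genes. All 5 passed the filter only through Control. Nothing is read from the rank of ALPK1, since it was chosen for its low values with DCC-2036. These genes were named after their values were seen.

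The table lists 3 transcripts of ALPK1, which share reads. NM_001102406.1 had 225.7, 200.9 and 208.9 in Control and 19.6, 6.72 and 18.5 with DCC-2036. NM_001253884.1 had 200.3, 186.9 and 194.2 in Control and 11.4, 3.41 and 12.7 with DCC-2036. All 3 were lower in each DCC-2036 library, as the plot of ALPK1 transcripts shows. NM_001253884.1 made up 30.3%, 31.2% and 31.6% of the summed ALPK1 value in Control and 22%, 20.2% and 24.9% with DCC-2036. Its share was thus lower in all 3 DCC-2036 libraries, at values close to the limit of 10, and this was seen after the values were known.

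**Figure D1:**
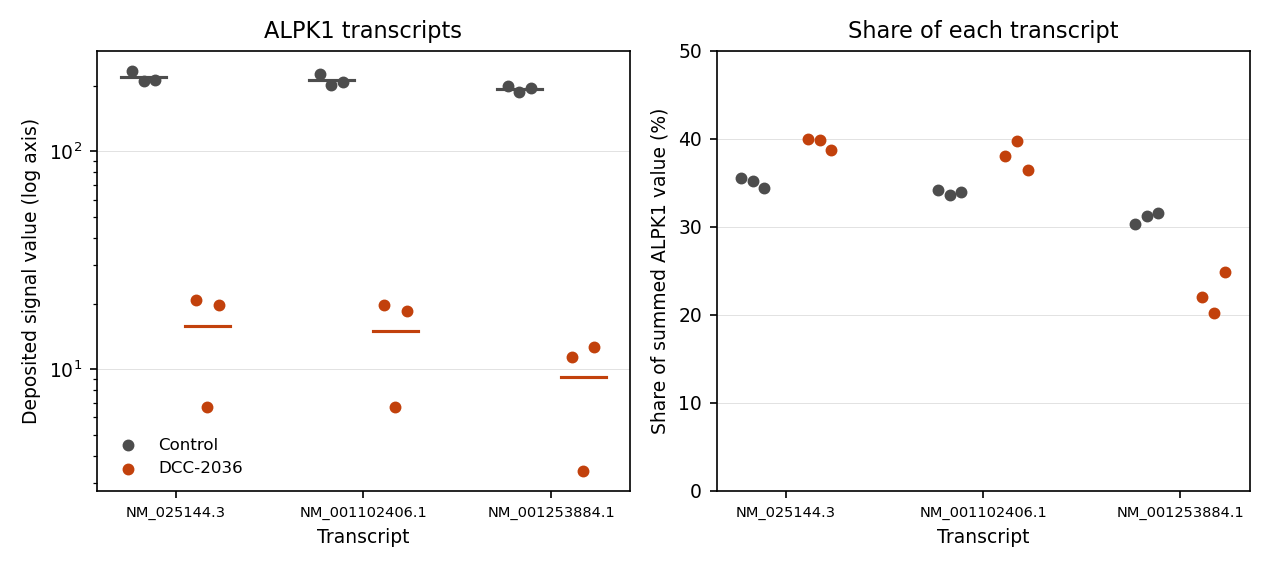
Left, signal values of the 3 ALPK1 transcripts on a log axis, with group means as lines. Right, the share of each transcript in the summed ALPK1 value. Points are libraries, grey for Control and orange for DCC-2036, and NM_001253884.1 holds 30.3% to 31.6% in Control and 20.2% to 24.9% with DCC-2036.

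The 5 tested genes whose profile over the 6 libraries lay nearest to that of ALPK1, by Euclidean distance of log2(value + 1) from the Control mean, were KRCC1, NLRP14, STON1, C2orf72 and RIOX1, at distances of 1.21, 1.26, 1.32, 1.33 and 1.34. KRCC1 had 168.4, 162.5 and 144.4 in Control and 26.8, 8.85 and 10.8 with DCC-2036. RIOX1 had 86.7, 58.5 and 74.6 in Control and 7.26, 4.43 and 10.3 with DCC-2036. Both were low in every DCC-2036 library and neither had overlapping groups, which follows from their choice by likeness to ALPK1. NLRP14 and STON1 passed the filter only through Control, NLRP14 being listed at 0 with DCC-2036. Nothing is read from the nearness of these genes.

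TIFA, the adaptor that ALPK1 phosphorylates, is a neighbour of ALPK1 on chromosome 4, and the annotated starts lie 11465 bases apart and point away from each other. TIFA stood at 438.3, 427.8 and 344.9 in Control and at 424.1, 431.8 and 437.4 with DCC-2036. The groups overlapped, with Control replicate 3 the lowest of all 6 libraries. The log2 difference was 0.10 with a standard error of 0.12, and it was -0.09 when the libraries were scaled to equal totals. The 250 bases before each start are shown because these neighbours had such different values, ALPK1 on the plus strand at chr4:112297119-112297368 and TIFA on the minus strand at chr4:112285905-112286154, from RefSeq on GRCh38.p14.
ALPK1: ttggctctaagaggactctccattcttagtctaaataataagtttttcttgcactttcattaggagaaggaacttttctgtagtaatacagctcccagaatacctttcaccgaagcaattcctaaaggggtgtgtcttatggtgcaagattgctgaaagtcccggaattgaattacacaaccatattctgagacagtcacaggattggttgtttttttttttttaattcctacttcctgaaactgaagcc
TIFA: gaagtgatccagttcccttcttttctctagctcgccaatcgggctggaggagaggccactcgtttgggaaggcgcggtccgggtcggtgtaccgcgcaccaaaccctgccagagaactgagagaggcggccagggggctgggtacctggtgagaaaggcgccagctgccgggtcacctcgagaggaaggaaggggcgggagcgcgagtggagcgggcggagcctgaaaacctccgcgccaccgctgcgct

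Among the other genes nearest to ALPK1 on the chromosome, in RefSeq order and with 3 on each side, 5 were not among the 10 genes and 4 of these were tested. They were chosen after the values were seen. ZGRF1 fell, with 393.2, 362.7 and 309.0 in Control and 178.3, 163.4 and 142.3 with DCC-2036 (log2 fold change -1.13, SE 0.14, adjusted p = 0.00106, limma). LARP7 was lower in each DCC-2036 library, with 763.4, 858.9 and 765.7 in Control and 569.3, 539.1 and 623.6 with DCC-2036, and missed the limit (log2 fold change -0.46, adjusted p = 0.0109, limma). FAM241A and AP1AR overlapped and were not called, and NEUROG2 had values of at most 3.1 and was not tested. The difference between ALPK1 and its neighbours was not tested.

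TRAF2, a ubiquitin ligase adaptor of TNF and TIFA signalling, measured 737.0, 837.7 and 883.7 in Control and 503.7, 409.0 and 249.9 with DCC-2036. All DCC-2036 values were lower, and replicate 3 was the lowest. The log2 difference was -1.13 (SE 0.26), with a mean of 47.3% of Control. TRAF6, the ligase that TIFA oligomers activate, measured 292.5, 255.3 and 289.0 in Control and 249.9, 278.9 and 188.4 with DCC-2036. The groups overlapped, and the log2 difference was -0.24 (SE 0.17). Its other transcript had nearly the same values, at most 292.5 in Control and 278.9 with DCC-2036.

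NOD1, the peptidoglycan sensor, measured 167.2, 171.9 and 221.2 in Control and 265.4, 270.4 and 217.4 with DCC-2036. Control replicate 3 lay above DCC-2036 replicate 3, so the groups overlapped, and the log2 difference was 0.43 (SE 0.16). RIPK2, the kinase that NOD1 recruits, measured 713.7, 732.4 and 632.1 in Control and 1604, 2227 and 3065 with DCC-2036. Every DCC-2036 library was above every Control library, and the spread was wider with DCC-2036, with means of 692.7 ± 53.3 and 2299 ± 733.0 (SD, n = 3). The log2 difference of RIPK2 was 1.68 (SE 0.24), the highest of the 10 genes. The sensor NOD1 and its kinase RIPK2 had log2 differences of 0.43 and 1.68, and ALPK1 and its adaptor TIFA had -3.86 and 0.10.

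NFKB1 encodes p105, the precursor of the p50 subunit. Its values were 947.7, 946.4 and 1012 in Control and 1543, 1950 and 2386 with DCC-2036. The groups did not overlap, and the log2 difference was 0.99 (SE 0.17). The other NFKB1 transcripts had log2 differences of 0.98 and 0.99.

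NFKB2 encodes p100, the precursor of the p52 subunit of the non-canonical arm. Its values were 1763, 1669 and 1823 in Control and 759.0, 639.7 and 573.9 with DCC-2036. All DCC-2036 values were lower, at a mean of 37.5% of Control, and the log2 difference was -1.42 (SE 0.13). Its 6 transcripts had log2 differences between -1.42 and -1.38. RELB, the partner of p52, measured 184.1, 232.1 and 209.8 in Control and 115.9, 63.1 and 68.5 with DCC-2036. The groups did not overlap, DCC-2036 replicate 1 was the highest of its group, and the log2 difference was -1.38 (SE 0.24). The ratio of the NFKB2 value to the NFKB1 value was 1.86, 1.76 and 1.8 in Control and 0.492, 0.328 and 0.241 with DCC-2036. NFKB2 was thus above NFKB1 in each Control library and below it in each DCC-2036 library on the scale of value per transcript. Whether these values were corrected for length is unknown. The ratio takes 1 transcript of each gene, of 6 for NFKB2 and 3 for NFKB1, with similar shares within each gene. If reads were divided among transcripts, the ratio of the whole genes would differ, and which gene was higher may differ too.

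NFKBIA, the IκB protein that holds NF-κB in the cytosol and is itself an NF-κB target, measured 514.2, 552.3 and 582.7 in Control and 528.9, 487.1 and 535.8 with DCC-2036. The groups overlapped, and the log2 difference was -0.09 (SE 0.10).

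Levels were compared between genes per kb of transcript, which takes the deposited values as not corrected for length. GENCODE lengths were found for 9 of the 10 chosen transcripts, all but that of NFKB2. Of its other transcripts, the 3 with a length had Control means of 567.0, 491.8 and 489.4 per kb, above every other gene of the 10, and 213.7, 190.0 and 187.3 per kb with DCC-2036. The place of TRAF6 in the order depends on the transcript, since its longer transcript, with nearly the same values, had 60.2 per kb in Control, below TIFA and RELB. Among the 9 genes, the order of mean value per kb in Control was TRAF2 at 362.0, NFKBIA at 352.8, RIPK2 at 268.1, NFKB1 at 237.1, TRAF6 at 109.0, TIFA at 97.1, RELB at 91, NOD1 at 41.5 and ALPK1 at 40.4. The per-kb values of TRAF2 and NFKBIA, of RIPK2 and NFKB1, of TRAF6, TIFA and RELB, and of NOD1 and ALPK1 overlapped between libraries. With DCC-2036 the highest mean values per kb were those of RIPK2, at 889.7, and NFKB1, at 479.7, and ALPK1 was the lowest at 2.9. These levels count 1 transcript a gene. ALPK1 and NFKB1 had 3 transcripts each and TRAF6 had 2, with similar shares in Control. If reads were divided among the transcripts of a gene, these levels understate such genes. The order, with ALPK1 the lowest in Control, may then not hold. Whether reads were so divided is unknown.

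Promoter windows of 300 bases, 250 before and 50 after an annotated start, were searched on both strands for GGG, any 2 bases, TT, any base and CC, a κB-like pattern of 10 bases chosen after these windows had been read. In all, 11 windows of 8 of the 10 genes were searched, all but RIPK2 and RELB. It was found in 4 windows of 3 genes, NFKB1, NFKB2 and NFKBIA, and in 5.68% of all 35116 windows. A match is a description of letters and not a binding site. The stretches are shown because NFKB1 was higher, NFKB2 lower and NFKBIA overlapping, with the pattern in capitals, from RefSeq on GRCh38.p14. They lie at chr4:102501279-102501358 on the plus strand, chr10:102394446-102394525 on the plus strand and chr14:35404776-35404855 on the minus strand. In NFKB2 the second run of capitals is made of overlapping matches. A further NFKB2 window, at chr10:102395455-102395754, held 2 matches and is not shown.
NFKB1: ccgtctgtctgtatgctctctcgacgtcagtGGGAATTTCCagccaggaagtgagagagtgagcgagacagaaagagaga
NFKB2: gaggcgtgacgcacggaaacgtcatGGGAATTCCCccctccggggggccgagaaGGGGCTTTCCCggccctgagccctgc
NFKBIA: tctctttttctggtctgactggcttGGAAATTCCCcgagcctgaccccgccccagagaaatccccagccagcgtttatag

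The 9 pathway lists held 103 genes besides the 10, of which 82 were tested. By limma, 10 of these were called higher and 20 lower at an adjusted p below 0.01 over all genes, against 2442 higher and 2887 lower genes, 19.2% and 22.7% of all genes tested, or 41.9% in either direction. The calls among the 82 came to 12.2% higher and 24.4% lower. At an unadjusted p under 0.05 (limma), 20 of the 82 were higher and 29 lower, where 30.5% of all genes tested were higher and 36.1% lower. The median log2 fold change was -0.09 in the lists and -0.09 over all genes. When the libraries were scaled to equal totals, the median of all genes moved to -0.28 and the share of calls that were higher went from 45.8% to 33.6%. Without Control replicate 1, 2 or 3, or without DCC-2036 replicate 2, the count of list genes called higher was 4, 3, 5 and 3, and of those called lower 11, 10, 11 and 14. Over all genes these fits called 1054, 1000, 992 and 928 higher and 1593, 1514, 1525 and 1708 lower. Of the 30 called genes, 27 were tested in every alternative, and 13 of these were called whichever library was left out. The other 3, TNFRSF1B, IL18R1 and IL23A, reached the filter's 10 only in the group where they were high, so the filter itself depended on their difference. The counts and percentages above include them, TNFRSF1B as higher and IL18R1 and IL23A as lower. Nothing is read from these 3 calls, and their values are given below without a p-value from the 6 libraries. In the alternatives in which each of the 30 was tested, its log2 fold change kept its sign. With no filter on low values, which adds genes to the adjustment, IRAK2, CARD9, REL, NFKBIB, ITCH, TNFRSF1A, TNFRSF1B and IL23A were not called, the highest of their adjusted p being 0.0176 (limma).

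The TNF and IL-1 receptor list had the most calls. Of 12 genes tested, 8 were called lower, 2 higher and 2 were not called, where 22.7% of all genes tested were called lower and 19.2% higher. Without IL18R1 and TNFRSF1B, which passed the filter only through the group where they were high, 7 of 10 were called lower and 1 higher. The median log2 fold change of the 12 was -1.34. FADD, the death-domain adaptor, measured 618.7, 609.4 and 549.3 in Control and 208.3, 157.1 and 165.6 with DCC-2036, a log2 fold change of -1.75 (SE 0.14, adjusted p = 0.000306, limma). CD40, a TNF-family receptor, went from 453.3, 429.3 and 417.8 to 169.9, 131.0 and 110.8 (log2 fold change -1.67, adjusted p = 0.000583, limma). No DCC-2036 value of either gene reached a Control value. IL18R1 had low values, 14.1, 14 and 18.5 in Control and 3.13, 6.42 and 3.59 with DCC-2036. TNFRSF1A, TRADD, LTBR, TNFRSF12A and TNFRSF11A also fell, and were named after their values were seen. LTBR, the lymphotoxin receptor that activates the non-canonical arm, had 1676, 1788 and 1629 in Control and 701.0, 679.7 and 709.4 with DCC-2036 (log2 fold change -1.28, adjusted p = 0.000272, limma). Against these, IL1RAP, the co-receptor of the IL-1 receptor, rose from 41.4, 48.6 and 31.1 to 124.4, 131.9 and 102.5 (log2 fold change 1.56, adjusted p = 0.00101, limma). TNFRSF1B had low values, 5.63, 3.38 and 8.38 in Control and 23.8, 25.9 and 14.5 with DCC-2036. The calls of TNFRSF1A and TNFRSF11A were lost with single libraries left out, at adjusted p up to 0.0192 and 0.0187 (limma). That of TNFRSF1B was lost without Control replicate 1 or 2, and it was not tested without any 1 DCC-2036 library. Nothing is read from its call, since the filter depended on its difference.

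Among sensors and adaptors of bacterial ligands, 14 genes besides ALPK1, TIFA, NOD1 and RIPK2 were tested, of which 1 rose and 3 fell. Over all genes tested, 19.2% were called higher and 22.7% lower. At an unadjusted p under 0.05 (limma), 1 of the 14 was higher and 8 lower, where 30.5% and 36.1% of all genes were. The median log2 fold change of the 14 was -0.42. TIRAP, the adaptor that brings MYD88 to TLR2 and TLR4, had 202.1, 226.7 and 216.3 in Control and 84.8, 57.4 and 38.3 with DCC-2036 (log2 fold change -1.89, SE 0.27, adjusted p = 0.0018, limma). All DCC-2036 values lay below Control. The kinase IRAK1 fell by 0.85 and IRAK2 by 0.89 on the log2 scale (adjusted p = 0.00118 and 0.00452, limma), and both were named after their values were seen. CARD9, an adaptor of myeloid cells, was low, at 19.9, 12.2 and 12.8 in Control and 28, 27.2 and 37.2 with DCC-2036 (log2 fold change 1.01, adjusted p = 0.00758, limma). The call of IRAK2 was lost without any 1 Control library or without DCC-2036 replicate 2, at adjusted p up to 0.0204, and that of CARD9 without any library but Control replicate 1, at up to 0.0311 (limma), and also with equal totals, at 0.0173, and with a trend, at 0.0205. NOD2, the relative of NOD1, had 126.0, 118.4 and 137.2 in Control and 97.2, 59.6 and 31.5 with DCC-2036 and was not called (adjusted p = 0.0359, limma). TLR2, TLR3 and TLR4 were near 0, and TIFAB was listed at 0 in all 6 libraries.

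In the TRAF family, TRAF4 fell, from 1978, 2116 and 2217 in Control to 823.3, 718.7 and 675.8 with DCC-2036 (log2 fold change -1.51, SE 0.12, adjusted p = 0.000287, limma). TRAF1, TRAF3, TRAF5 and TRAF7 were not called. TRAF1 had low values, 24.4, 36.4 and 17.3 in Control and 9.28, 1.22 and 8.08 with DCC-2036, without overlap. Its log2 fold change was -2.13 (SE 0.61), and it passed the filter only through Control. TRAF7, the most abundant of the list, had 4503, 4601 and 4694 in Control and 5046, 4831 and 4132 with DCC-2036. Its groups overlapped.

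Among the 13 kinases and ligases of the TAK1, IKK and LUBAC complexes, all of them tested, 1 rose and 3 fell. Over all genes tested, 19.2% were called higher and 22.7% lower. At an unadjusted p under 0.05 (limma), 4 of the 13 were higher and 3 lower, where 30.5% and 36.1% of all genes were. The median log2 fold change of the 13 was 0.21. UBE2N, the ubiquitin-conjugating enzyme that works with TRAF6, had 2076, 2185 and 2221 in Control and 3790, 4487 and 5886 with DCC-2036 (log2 fold change 1.10, SE 0.17, adjusted p = 0.00232, limma). TAB1, a TAK1-binding protein, had 655.2, 713.0 and 760.3 in Control and 283.6, 129.1 and 87 with DCC-2036 (log2 fold change -2.26, SE 0.40, adjusted p = 0.00383, limma). The groups overlapped in neither gene. RNF31, the catalytic subunit of LUBAC, fell by 1.28 on the log2 scale (adjusted p = 0.00126, limma). MAP3K14, the NIK kinase that drives processing of p100, had 326.3, 297.4 and 353.6 in Control and 167.9, 152.5 and 97.1 with DCC-2036 (log2 fold change -1.26, adjusted p = 0.00335, limma). The calls of UBE2N, TAB1 and MAP3K14 were lost without any 1 Control library or without DCC-2036 replicate 2, at adjusted p up to 0.012, 0.0172 and 0.0162 (limma). MAP3K7, which encodes TAK1, and CHUK, IKBKB and IKBKG, which encode IKK subunits, were not called. All DCC-2036 values of MAP3K7, CHUK and IKBKG lay above their Control values. Their log2 fold changes were 0.58, 0.43 and 0.21 (adjusted p = 0.0373, 0.0171 and 0.122, limma). The groups of IKBKB overlapped. UBE2V1, the most abundant of the list by the mean over the 6 libraries, had 2981 to 3345 in Control and 3525 to 3993 with DCC-2036. It was not called (adjusted p = 0.0906, limma), and it lay below UBE2N in each DCC-2036 library.

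Both NF-κB subunit genes outside the 10 were called, in opposite directions, and were named after their values were seen. RELA, the p65 subunit, had 1809, 1916 and 2016 in Control and 1178, 1045 and 893.0 with DCC-2036 (log2 fold change -0.89, SE 0.13, adjusted p = 0.00194, limma). REL had 196.4, 218.8 and 205.2 in Control and 327.8, 347.6 and 471.7 with DCC-2036 (log2 fold change 0.87, SE 0.16, adjusted p = 0.0042, limma). Neither had overlapping groups, and the ratio of the RELA value to the REL value went from 9.21, 8.76 and 9.82 to 3.59, 3.01 and 1.89. The call of RELA was lost without Control replicate 2 or 3, at adjusted p up to 0.0113, and that of REL without any 1 Control library or DCC-2036 replicate 2, at up to 0.0194 (limma). Among 5 other genes of the IκB family, 2 fell, NFKBIB and NFKBIE, where 22.7% of all genes tested were called lower. NFKBIE, the IκBε inhibitor, had 332.8, 379.6 and 326.6 in Control and 195.7, 108.6 and 118.9 with DCC-2036 (log2 fold change -1.34, adjusted p = 0.00334, limma). The calls of NFKBIE and NFKBIB reached adjusted p of 0.0153 and 0.0399 with a library left out (limma), and that of NFKBIB was also lost when scaled by median of ratios or upper quartile.

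Of 14 negative regulators, all tested, 4 rose and 0 fell by limma, where 19.2% of all genes were called higher and 22.7% lower. Their median log2 fold change was 0.38. At an unadjusted p under 0.05, 7 were higher and 2 lower, where 30.5% of all genes tested were higher and 36.1% lower. OTULIN, the deubiquitinase that removes the linear chains LUBAC builds, had 678.0, 663.0 and 614.7 in Control and 1161, 1403 and 1498 with DCC-2036 (log2 fold change 1.05, SE 0.13, adjusted p = 0.00103, limma). RNF11, a partner of the A20 complex, had 1131, 1177 and 1232 in Control and 2087, 2780 and 3428 with DCC-2036 (log2 fold change 1.20, SE 0.19, adjusted p = 0.00237, limma). All DCC-2036 values of both genes were above Control. TNFAIP3, which encodes A20, rose by a log2 fold change of 0.84 and ITCH by 0.60 (adjusted p = 0.00259 and 0.00504, limma), and both were named after their values were seen. The calls of RNF11, TNFAIP3 and ITCH were lost with single libraries left out, at adjusted p up to 0.0121, 0.0126 and 0.0246 (limma), and that of ITCH also with equal totals. TAX1BP1, the most abundant of the list, had 1821, 2055 and 1736 in Control and 2466, 2895 and 3808 with DCC-2036 and was not called (adjusted p = 0.0154, limma).

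Of 27 NF-κB target genes, 14 were too low to be tested and 12 did not exceed 10 in any library. The counts are those of this list alone, which does not hold NFKBIA, named above as a target. TNF was listed at 0 in all 6 libraries, and CXCL10, CCL2 and BCL2A1 had values near 0. IL6, IL1A and IL1B had values of at most 2.06, 3.79 and 7.17. Of the 13 that were tested, 1 was called higher and 2 lower, IL23A among them. Over all genes tested, 19.2% were called higher and 22.7% lower. Without IL23A, which passed the filter only through Control, 1 of 12 was called higher and 1 lower. At an unadjusted p under 0.05 (limma), 5 of the 13 were higher and 2 lower, where 30.5% and 36.1% of all genes were. The median log2 fold change of the 13 was 0.28. SOD2, the mitochondrial superoxide dismutase, had 1933, 2063 and 1973 in Control and 3647, 4003 and 4254 with DCC-2036 (log2 fold change 0.99, SE 0.10, adjusted p = 0.000643, limma). It was named after its values were seen. IRF1, an interferon regulatory factor, had 278.3, 266.8 and 283.5 in Control and 144.0, 106.2 and 103.6 with DCC-2036 (log2 fold change -1.24, SE 0.15, adjusted p = 0.000996, limma). Neither SOD2 nor IRF1 had overlapping groups. IL23A had low values, 17.9, 14.9 and 13.7 in Control and 8.3, 9.7 and 7.14 with DCC-2036, and was not called by limma with a trend. IER3, the most abundant target, had 7367, 6918 and 6971 in Control and 5967, 7586 and 10883 with DCC-2036, with overlapping groups. CXCL8, a neutrophil chemokine, had 20.6, 33.8 and 19.2 in Control and 30.1, 23.9 and 33.8 with DCC-2036.

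In the alpha-kinase family, 4 relatives of ALPK1 were tested and limma called 0 of them, where 41.9% of all genes tested were called. At an unadjusted p under 0.05 (limma), 0 of these 4 relatives passed as well. TRPM7, the most abundant, had 967.6, 958.1 and 813.4 in Control and 1188, 945.0 and 1036 with DCC-2036 (log2 fold change 0.21, adjusted p = 0.208, limma). EEF2K had 746.6, 715.6 and 680.1 in Control and 1115, 876.5 and 442.6 with DCC-2036. The groups of both overlapped. ALPK2 had low values, 14.2, 14.2 and 7.22 in Control and 4.15, 5.37 and 2.47 with DCC-2036. Its groups did not overlap, and it was not tested.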

How the data were processed

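RNA-seq values of 6 LoVo libraries, 3 a group by their titles, were analysed. The authors deposited a signal per RefSeq transcript that is not in whole counts, with transcripts of a gene sharing reads. The aligner, build and normalization are not given in the sources used here, and depth is unknown. The authors' columns of log2 fold change, p-value and q-value were not used. For each of 19223 symbols the transcript with the highest mean was kept. The 12725 genes that reached 10 in 3 or more libraries were tested two-sided as log2(value + 1) with limma 3.58.1 in R 4.3.3, without covariates, with Benjamini-Hochberg adjustment over all of them, and called below 0.01. The code was tested on simulated data. The members and lists were chosen with earlier results of these data known. Named genes were all 10 members and, per list, called genes whose log2 fold change was 1 or more in size, at most the 3 highest and 3 lowest, and the most abundant gene if not called. Other genes named, NOD2, CXCL8 and EEF2K among them, were chosen after their values were seen. Lengths came from GENCODE 29. Alternatives were scalings, filters, a pseudocount of 0.1, summed transcripts, a trend, a replicate block, other limits and each library left out.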

Additional observations from a re-analysis of the deposited data

How the results depend on the processing

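With the replicate number as a replicate block, limma called 1202 genes higher and 1909 lower, and 6 and 11 genes of the pathway lists. Deviations from the group means of same-numbered libraries had correlations of 0.081, -0.0352 and -0.00329. Libraries of different number were not compared, so these values do not show whether the libraries were prepared in pairs. Leaving out single libraries, the calls ran from 928 to 2675 higher and from 1514 to 3507 lower, and in the lists from 3 to 12 higher and from 10 to 24 lower. Fewer libraries entered these fits.

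Without a filter on low values, 6 list genes were called higher. At an adjusted p limit of 0.05 there were 20. With a log2 fold change of 1 or more in size asked for besides, 944 genes and 6 list genes were called higher. The cause of the first of these was not tested. The other scalings, filters, the pseudocount, summed transcripts and the trend kept the counts within 1.5 times.

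ALPK1 had log2 differences between -4.10 and -3.78 with all 6 libraries and between -4.12 and -3.37 with 1 left out. With at least 10 in every library it gave no value, since a DCC-2036 value was lower. RIPK2 lay between 1.45 and 1.92, NFKB1 between 0.80 and 1.15, NFKB2 between -1.61 and -1.33, RELB between -1.65 and -1.21 and TRAF2 between -1.35 and -0.85. TRAF6 lay between -0.43 with equal totals and -0.08 without DCC-2036 replicate 3, NOD1 between 0.24 with equal totals and 0.56, and NFKBIA between -0.28 with equal totals and -0.0057 by median of ratios. TIFA changed sign, at -0.09 with equal totals and -0.00632 without Control replicate 3. Of the 27 called list genes tested in all alternatives, 13 were called in each fit at the limit of 0.01. Depth is unknown and sets no limit that could be computed.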
